A study of Mus musculus with 12 samples.

Results

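Leukotriene synthesis, leukotriene breakdown and the microsomal glutathione transferase family were followed through 10 genes in murine acute myeloid leukaemia cells. The genes were Alox5, Alox5ap, Ltc4s, Lta4h, Mgst1, Mgst2, Mgst3, Ptgr1, Cyp4f18 and Ltb4r1. They are 10 of the 17097 genes with a probe set of their own on the arrays. All probe sets annotated to 1 of these genes alone were taken, which gave 12 of 28898, with 2 each for Lta4h and Mgst1. The list was put together by function around genes selected on earlier results of these same arrays, among them the rise of Mgst1 and the fall of Cyp4f18. Differences of the 10 genes between lines are therefore given as descriptions with their spread and with no p-value.

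The 12 arrays measured total RNA of 3 cell lines, 4 arrays each, grown without treatment in IMDM that held serum (fetal bovine, 10%) and interleukin-3 at 5 ng/ml. The line Trib1 expresses Trib1, a pseudokinase that drives degradation of C/EBPalpha, while TB13 and TB14 carry Trib1 and in addition Bcl11a, a zinc finger repressor. The comparison of cells with and without Bcl11a belongs to a study of how BCL11A affects the transcription factor PU.1. Trib1 is thus shared by every group, the genotype label of TB13 and TB14 is the same, and cells without Bcl11a are represented by a single line. The sources used here do not name the vector or promoter, or say whether each line is 1 clone or the 4 arrays of a line came from separate cultures, so the spread between arrays may be technical.

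Leukotrienes are lipid mediators made from arachidonic acid, chiefly by myeloid cells. Arachidonate 5-lipoxygenase, encoded by Alox5, works with the membrane protein FLAP, encoded by Alox5ap, to make leukotriene A4. Leukotriene A4 hydrolase (Lta4h) turns it into the neutrophil attractant leukotriene B4, and leukotriene C4 synthase (Ltc4s) joins it to glutathione. FLAP, leukotriene C4 synthase and the 3 microsomal glutathione transferases belong to 1 family of small membrane proteins, called MAPEG.

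Values are linear intensities as deposited, and levels are not compared between probe sets. A log2 difference is on the scale log2(intensity + 12.7), which understates changes of dim probe sets, and is given with its standard error (SE) from limma. A probe set was tested if it exceeded the median of its array on at least 4 of the 12 arrays, which 17475 did, and called where the p-value, adjusted over all of them by Benjamini and Hochberg's method, was under 0.05. Of the member probe sets 11 passed, covering all 10 genes. The dimmer Mgst1 probe set did not.

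The TB13 arrays differed from the other 8 as a whole. Their 18 hybridization control probe sets, which report RNA that the platform's protocol adds for the hybridization, had a median log2 difference of -0.93 from Trib1, against 0.0010 in TB14, and the median over all tested probe sets was -0.39 in TB13 and 0.0084 in TB14. Differences of the member genes between TB13 and Trib1 are therefore given as deposited, after quantile scaling, which put that median at -0.031, and after calibration on the hybridization controls, which put it at 0.56. The part of this array-wide shift in any single difference was not tested. All 9 myeloid progenitor markers passed the filter, and on the Trib1 arrays they summed to an intensity of 7029 to 7194, with 6209.8 to 6320.1 on the TB13 and 10216 to 10355 on the TB14 arrays. The sum hides opposite moves, Mpo reading 207 to 235, 844 to 865 and 2274 to 2329 and Ptprc 1891 to 1979, 1406 to 1548 and 1366 to 1418. As deposited 2 of the 9 were called higher and 5 lower in TB13, against 26.0% and 64.4% of all tested probe sets. In TB14 these were 5 and 3, against 29.6% and 20.0%. The TB13 counts were 5 and 3 after quantile scaling, against 37.0% and 43.0% of all tested probe sets. Under calibration they were 6 and 1, where 13088 of all 17475 were higher and 1900 lower. Among 13 mast cell and basophil markers 8 passed, including Cpa3 at 5914 to 6320 on all arrays, while the tryptase gene Tpsb2 was too dim to pass. In RNA of whole cultures, fewer cells of a type and less RNA per cell cannot be told apart.

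Alox5, the gene of the lipoxygenase itself, was lower in both Bcl11a lines. The 4 Trib1 arrays read 1557, 1594, 1520.3 and 1553. Those of TB13 read 123, 94.6, 86.2 and 115, and those of TB14 616, 596, 621 and 592. No line overlapped another, TB13 being lowest and TB14 intermediate. The mean was 1556 ± 30.3 (SD, n = 4) in Trib1, 14.8 times that of TB13 (105 ± 17.2) and 2.57 times that of TB14 (606 ± 14.5). In TB13 the log2 difference was -3.75 ± 0.068 (SE) as deposited, -3.22 after quantile scaling and -2.89 under calibration. As deposited, 1 of the 17475 tested probe sets had a lower TB13 difference. After quantile scaling 4, Alox5 included, were as low or lower. The members were chosen with these contrasts known, so nothing is read from the rank. In TB14 the log2 difference of Alox5 was -1.34 ± 0.068, and -1.49 and -1.45 under the same scalings.

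Alox5ap, whose product FLAP presents arachidonic acid to the lipoxygenase, was also lower in both lines, by much less. It read 4136, 4049, 4071 and 3957 in Trib1, 2809.6, 2710.2, 2706 and 2673 in TB13, and 3210.0, 3154, 3094 and 3083 in TB14. The ranges of the 3 lines did not overlap, although TB13 and TB14 lay close together. Its log2 difference was -0.57 ± 0.018 in TB13 and -0.37 ± 0.018 in TB14 (SE), with -0.49 and -0.39 after quantile scaling and -0.56 and -0.40 under calibration. The TB13 value was not far from the median of all probe sets as deposited, with 39.4% of tested probe sets as low or lower. After quantile scaling that share was 18.6%.

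**Figure D1:**
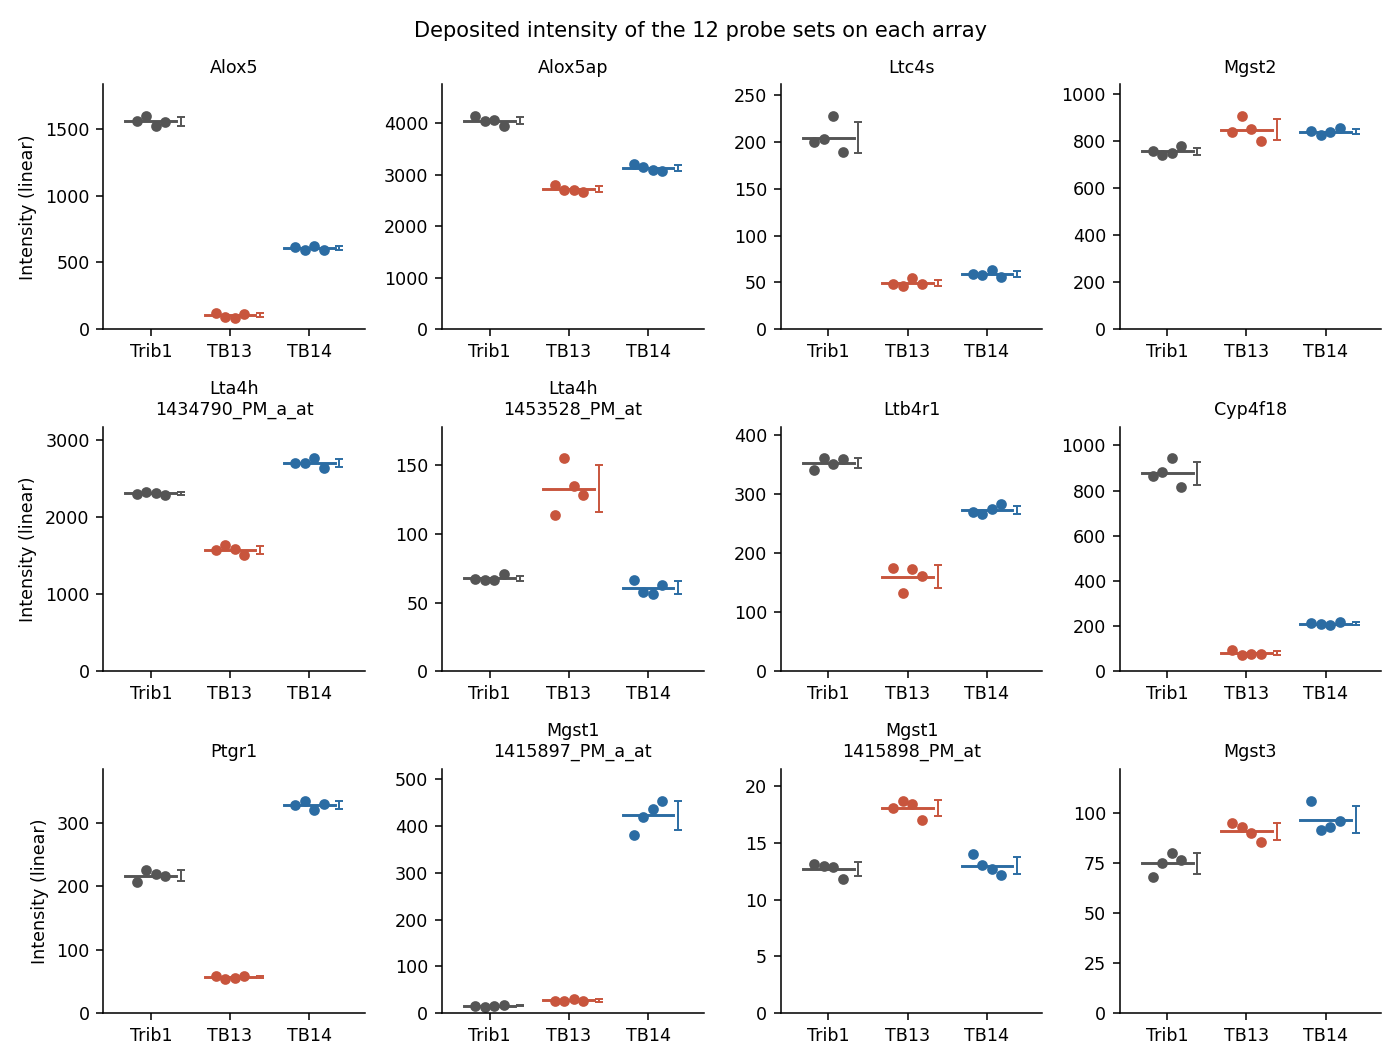
Deposited linear intensity (vertical axes, from 0) of the 12 member probe sets on each array, by line. Points are arrays, horizontal lines the mean and bars beside them the SD over 4 arrays. Alox5 and Cyp4f18 sit far below Trib1 in TB13 and between them in TB14, while 1 of the 2 Mgst1 probe sets is high in TB14 alone, at 381 to 454.

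Ltc4s, which commits leukotriene A4 to the cysteinyl leukotrienes, fell to similar levels in both Bcl11a lines. Its intensities were 200.04, 203, 228 and 189 in Trib1, 48.7, 46.2, 54.3 and 47.9 in TB13, and 58.8, 57.7, 63.3 and 55.8 in TB14. The highest array of either Bcl11a line, at 63.3, lay far below the lowest Trib1 array, at 189. The log2 difference was -1.81 ± 0.061 in TB13 and -1.60 ± 0.061 in TB14 (SE), or -1.50 and -1.43 after quantile scaling and -0.66 and -1.67 under calibration. TB13 and TB14 did not overlap as deposited, but their order turned with the scaling: the log2 difference of TB14 from TB13 was 0.21 as deposited, 0.075 after quantile scaling and -1.01 under calibration. Of 11 tested probe sets for mast cell and basophil markers, 3 were higher and 5 lower in TB13, and 8 higher and 2 lower in TB14, as deposited. Over all tested probe sets 26.0% were higher and 64.4% lower in TB13, and 29.6% and 20.0% in TB14. The TB13 counts for this list were 5 and 5 after quantile scaling, 2 and 9 under median scaling, and 5 and 4 under calibration. Of all 17475 tested probe sets, 6462 were higher and 7521 lower after quantile scaling. These were 3070 and 12760 under median scaling, and 13088 and 1900 under calibration. The mast cell and basophil genes summed to 9373 to 9505 on the Trib1, 7939.7 to 8160.5 on the TB13 and 10226 to 10314 on the TB14 arrays, and Cpa3 made up most of that sum. Single markers went different ways: Fcer1a, a chain of the IgE receptor, was lower in both lines (463 to 493 in Trib1, 222 to 261 in TB13, 146 to 152 in TB14), as was the chymase gene Cma1 (97.4 to 111, 30.2 to 57.0 and 36.0 to 42.8), while Ms4a2, another chain of that receptor, was higher (68.5 to 81.6, 214 to 248.6 and 612 to 649). Mcpt8 (1743 to 1779, 640 to 690 and 1903 to 1945) and Hdc (394 to 420, 76.3 to 106 and 418 to 436) were lower in TB13 and not in TB14. Kit (221 to 252, 216 to 291 and 486 to 521) and Gata2 (341 to 351, 333 to 357 and 424 to 458) were higher in TB14, and in TB13 they overlapped Trib1. The part of these markers in the Ltc4s result was not tested.

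Lta4h, the hydrolase that makes leukotriene B4, moved in opposite directions in the 2 Bcl11a lines by its brighter probe set, 1434790_PM_a_at. Trib1 read 2304, 2332, 2318 and 2287, TB13 1568, 1634, 1586 and 1512, and TB14 2703, 2704, 2761 and 2633. All TB13 arrays lay below Trib1 and all TB14 arrays above it. The log2 difference was -0.55 ± 0.021 in TB13 and 0.22 ± 0.021 in TB14 (SE), with -0.35 and 0.24 after quantile scaling and -0.28 and 0.28 under calibration. The other probe set, 1453528_PM_at, went the other way in TB13, reading 67.0, 66.5, 66.8 and 70.6 in Trib1 and 114, 155, 135 and 128 in TB13, a log2 difference of 0.85 ± 0.071 (SE) as deposited, 1.41 after quantile scaling and 1.90 under calibration. The TB14 arrays read 66.6, 58.0, 56.3 and 63.0 and overlapped Trib1. The direction for Lta4h in TB13 thus depends on the probe set, and the sources used here do not place either on the transcript.

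Ltb4r1, the high-affinity receptor for leukotriene B4, was lower in both lines. The arrays gave 341, 360.3, 350.2 and 359 in Trib1, 174, 132, 173 and 161 in TB13, and 269, 266, 274 and 283 in TB14, with no overlap between lines. In TB14 the log2 difference of -0.35 ± 0.062 (SE) changed little with scaling, reading -0.37 after quantile scaling and -0.36 under calibration. For TB13 the size rested on the scaling, with -1.09 ± 0.062 as deposited, -0.32 after quantile scaling and -0.10 under calibration, where it was no longer called.

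Cyp4f18, a cytochrome P450 that hydroxylates and so inactivates leukotriene B4 in mouse neutrophils, fell in both lines. It read 864, 880.4, 942 and 816 in Trib1, 94.3, 74.0, 75.9 and 77.4 in TB13, and 211, 207, 207 and 218 in TB14. The 3 lines were fully separate, again with TB13 lowest. The Trib1 mean of 876 ± 52.1 was 10.9 times that of TB13 (80.4 ± 9.38) and 4.15 times that of TB14 (211 ± 5.25; SD, n = 4). Log2 differences were -3.26 ± 0.058 and -1.99 ± 0.058 (SE) as deposited, -2.72 and -2.07 after quantile scaling, and -2.28 and -2.11 under calibration. TB14 lay above TB13 by 1.27 as deposited, by 0.65 after quantile scaling and by 0.16 under calibration on the log2 scale.

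Ptgr1, prostaglandin reductase 1, oxidizes leukotriene B4 and thus also belongs to its breakdown, but its pattern differed from that of Cyp4f18. The Trib1 arrays read 207, 226, 220.1 and 216, those of TB13 58.3, 54.8, 56.1 and 58.6, and those of TB14 328, 336, 320.1 and 329.9. Ptgr1 was thus lowest in TB13 and highest in TB14, without overlap. The log2 difference from Trib1 was -1.72 ± 0.043 in TB13 and 0.57 ± 0.043 in TB14 (SE). Both directions held after quantile scaling (-1.31 and 0.54), median scaling (-1.94 and 0.59) and calibration (-0.58 and 0.61). TB14 exceeded TB13 by 2.29 ± 0.043 as deposited. Of the 17475 probe sets 13, Ptgr1 included, differed between these lines by as much or more in that direction, and 24 after quantile scaling. Nothing is read from this rank either, for the same reason as for Alox5.

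**Figure D2:**
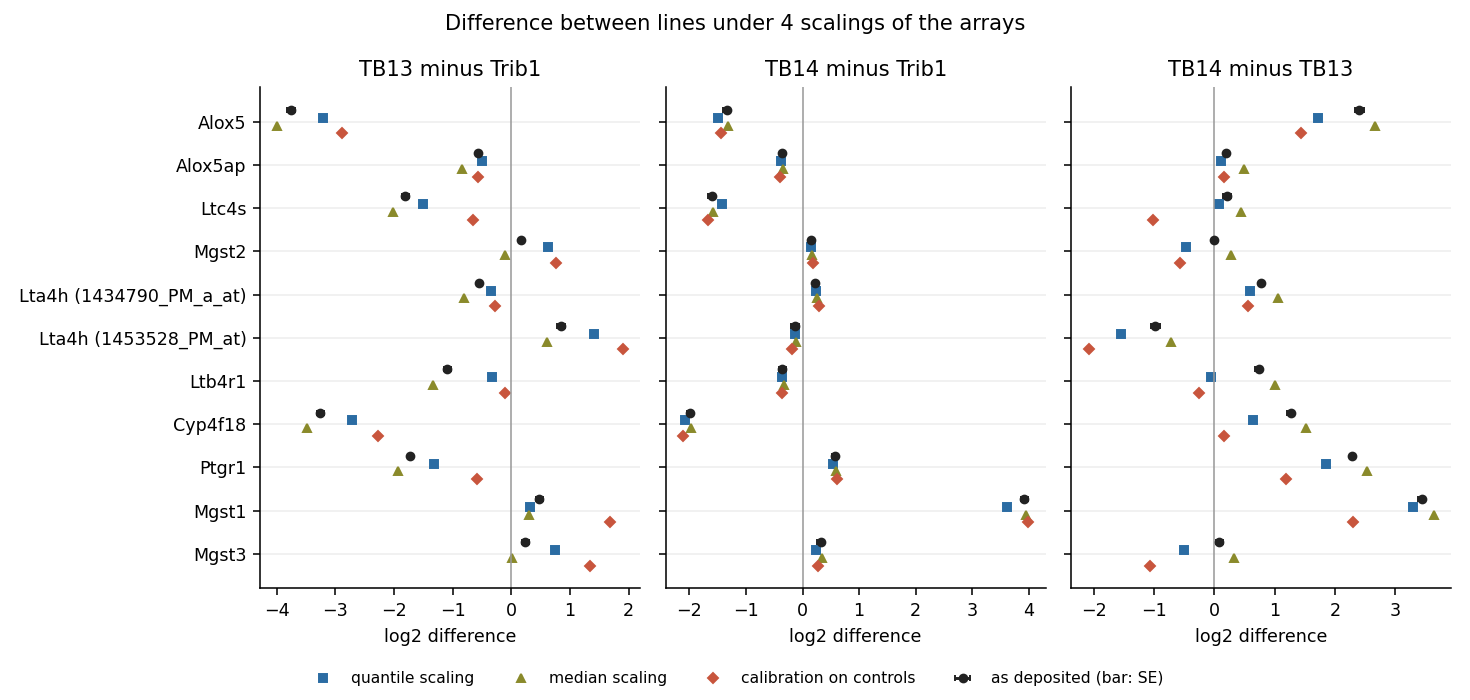
Log2 difference (horizontal axes) between lines for the 11 tested member probe sets, under 4 scalings of the arrays, with bars for the SE of the deposited values. In TB14 minus Trib1 the 4 symbols nearly coincide, whereas in comparisons with TB13 they spread, by enough to change the sign for Mgst2 in both comparisons and for Ltb4r1, Ltc4s and Mgst3 in TB14 minus TB13.

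Among the microsomal glutathione transferases, Mgst1 stood apart. Its product is a glutathione transferase and peroxidase of microsomal and mitochondrial membranes. The probe set 1415897_PM_a_at read 16.4, 14.2, 16.6 and 16.9 in Trib1, 26.8, 25.2, 31.0 and 26.5 in TB13, and 381, 419, 436 and 454 in TB14. Trib1 values lay below the array medians of 21.1 to 21.4, TB13 values on both sides of the medians of 25.5 to 25.9, and TB14 values far above theirs. The TB14 log2 difference of 3.92 ± 0.062 (SE) was the second highest among 17475 probe sets as deposited and the third after quantile scaling, at 3.61. Mgst1 was chosen for its rise on these arrays, and this probe set passed the filter only through TB14, so nothing is read from the rank. In TB13 the log2 difference was 0.48 ± 0.062 as deposited, 0.31 after quantile scaling and 1.68 under calibration, all from dim values. TB14 exceeded TB13 by 3.44 ± 0.062, by 3.29 after quantile scaling and by 2.31 under calibration. The other Mgst1 probe set, 1415898_PM_at, stayed below the array medians on all 12 arrays, at 11.8 to 13.1 in Trib1, 17.0 to 18.7 in TB13 and 12.2 to 14.0 in TB14, so the ranges of Trib1 and TB14 overlapped.

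Mgst2 and Mgst3 differed by much less from Trib1 in TB14, and in TB13 by an amount that rested on the scaling. Mgst2, which can also make leukotriene C4, read 760.0, 742, 749.6 and 777 in Trib1, 837, 905, 852 and 799.6 in TB13, and 843, 826, 837 and 855 in TB14. Each Bcl11a line lay above Trib1 and overlapped the other. Its log2 difference in TB14 was 0.15 ± 0.031 (SE), and 0.16 after quantile scaling. In TB13 it ran from -0.10 under median scaling through 0.16 as deposited and 0.63 after quantile scaling to 0.76 under calibration, so its direction there rested on the scaling. Mgst3 read 67.9 to 80.2 in Trib1, 85.6 to 94.9 in TB13 and 91.7 to 106 in TB14, with log2 differences of 0.24 ± 0.058 and 0.32 ± 0.058 (SE). The TB13 difference of Mgst3 was 0.0097 under median scaling, where it was not called, 0.74 after quantile scaling and 1.34 under calibration. In TB14 it was 0.24 after quantile scaling and 0.28 under calibration.

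Set against all tested probe sets, TB14 against Trib1 gave 5 member probe sets called higher and 5 lower of 11, where 29.6% and 20.0% of all 17475 were called. The member median was -0.13 and the overall median 0.0084. With a change of 2-fold or more required as well, 1 member was higher (Mgst1) and 3 were lower (Alox5, Ltc4s and Cyp4f18), against 0.996% and 1.51% of all. TB13 against Trib1 gave 4 higher and 7 lower, against 26.0% and 64.4%, and the same counts after quantile scaling, against 37.0% and 43.0%. At 2-fold these became 0 and 5 as deposited, against 0.773% and 15.3%, and 1 and 4 after quantile scaling, against 4.06% and 4.72%. The member median in TB13 was -0.57 as deposited and -0.35 after quantile scaling. TB14 against TB13 gave 8 higher and 1 lower as deposited, against 65.2% and 26.0%, and 6 and 3 after quantile scaling, against 44.8% and 35.9%. At 2-fold the counts were 4 and 0 as deposited, against 17.2% and 0.910%, and 3 and 1 after quantile scaling, against 4.72% and 4.24%. Since the members were chosen with these contrasts known, nothing is read from the counts. Both comparisons with Trib1 use the same 4 Trib1 arrays.

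**Figure D3:**
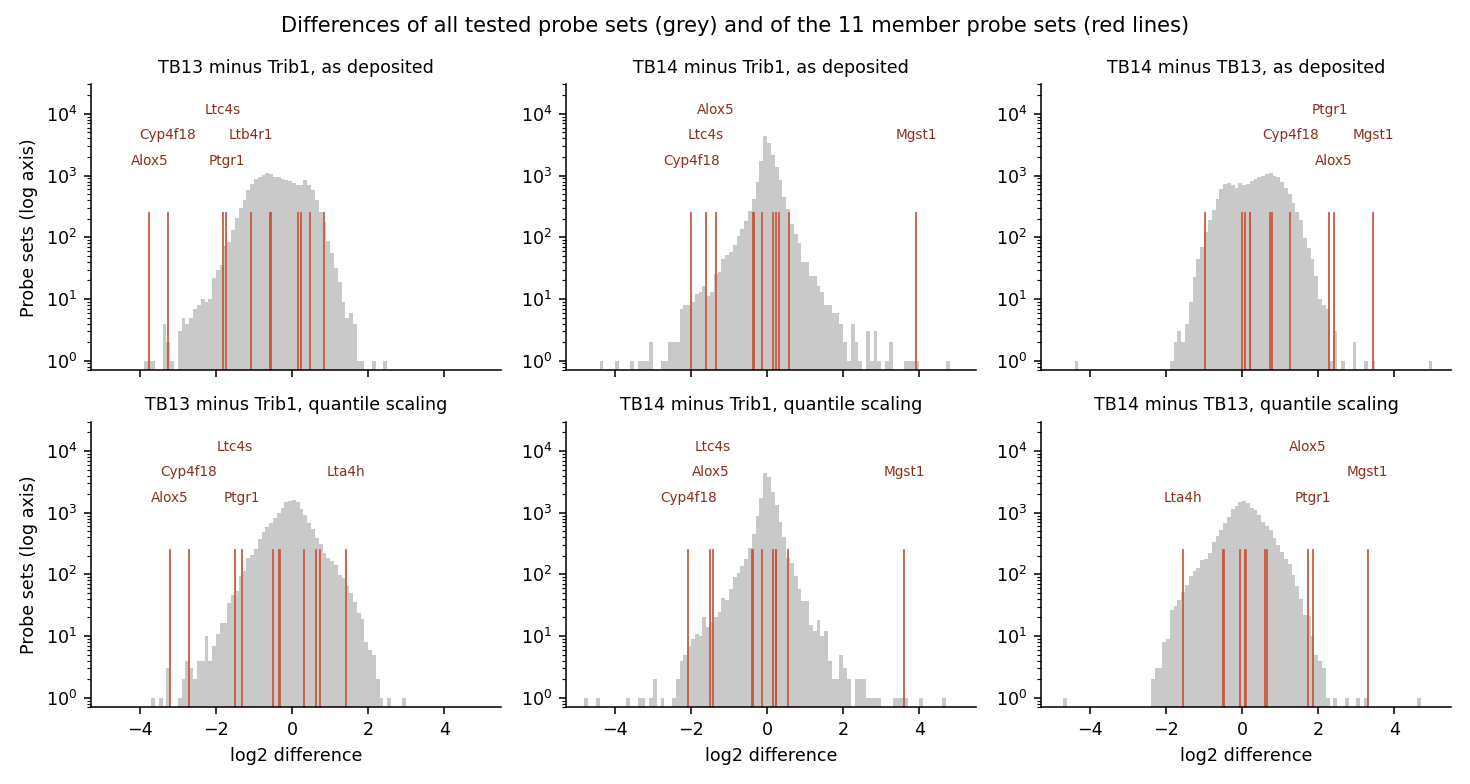
Log2 differences of all 17475 tested probe sets (grey histogram, logarithmic vertical axis) for the 3 comparisons, as deposited above and after quantile scaling below. Red lines mark the 11 member probe sets, with names at 2-fold or more. Alox5 and Cyp4f18 lie in the far lower tail of TB13 minus Trib1 under both, and Mgst1 in the far upper tail of both comparisons with TB14. Cyp4f18 and Mgst1 were among the genes chosen for their changes on these arrays.

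Markers of mature myeloid cells also differed between the lines. Of the 10 tested probe sets for monocyte and macrophage markers, none was higher and 10 were lower in each Bcl11a line as deposited. Under calibration the TB13 counts were 3 higher and 5 lower, and those of TB14 were as before. Over all tested probe sets, 64.4% were lower in TB13 and 20.0% in TB14 as deposited, and under calibration 13088 of 17475 were higher and 1900 lower in TB13. The 8 measured genes of that list summed to 3374 to 3569.7 on Trib1 arrays, against 1262 to 1470.4 for TB13 and 1472 to 1503 for TB14, and Cx3cr1 and Klf4 were too dim to pass. For neutrophil markers the sum over 9 genes was 907 to 936 on Trib1 arrays, against 618 to 649 for TB13 and 5010.3 to 5191 for TB14. The calprotectin genes carried most of the TB14 sum, S100a9 reading 152 to 177, 59.1 to 77.6 and 2512 to 2675 and S100a8 42.4 to 52.6, 18.9 to 28.1 and 1531 to 1608 in the same order. Ngp (49.4 to 53.9, 50.9 to 62.1 and 197 to 209) and Camp (30.8 to 35.7, 32.7 to 41.8 and 43.4 to 62.8) were also higher in TB14, and in TB13 they overlapped Trib1. Mmp8 (87.6 to 98.8, 267 to 275 and 209.8 to 222) and the dim Cxcr2 (16.0 to 19.0, 21.3 to 32.1 and 21.5 to 27.7) were higher in both lines. Lcn2 (359 to 376, 54.5 to 75.3 and 324 to 347) and Ltf (116 to 120.3, 56.0 to 78.1 and 94.6 to 105) were lower in both. Mmp9, also dim, was lower in TB14 (20.8 to 23.7, 21.0 to 25.6 and 18.3 to 20.0). Of 9 tested neutrophil probe sets 2 were higher and 4 lower in TB13, and 6 higher and 2 lower in TB14, while under calibration 7 were higher and 1 lower in TB13. As deposited, 26.0% of all tested probe sets were higher in TB13 and 29.6% in TB14. The part of either list in the falls of Alox5 and Cyp4f18 or the rise of Mgst1 was not tested.

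Beyond the 10 genes, 68 others of arachidonic acid release, prostaglandin and lipoxygenase metabolism and eicosanoid receptors were listed by function, of which 56 were measured and 38 had at least 1 of 57 tested probe sets. In TB14 against Trib1, 15 of the 57 were higher, 18 lower and 24 not called by limma, with a median of -0.029, and none reached 2-fold. Of all tested probe sets 29.6% were higher and 20.0% lower in that comparison, and 0.996% and 1.51% at 2-fold. In TB13 20 were higher and 32 lower as deposited, against 26.0% and 64.4% of all, with a median of -0.31. After quantile scaling 25 were higher and 27 lower, against 37.0% and 43.0% of all, with a median of -0.086. Calibration on the controls turned that median to 0.52, with 42 higher and 10 lower. It turned the median over all 17475 tested probe sets to 0.56, with 13088 higher and 1900 lower. At 2-fold, 2 of the 57 were higher and 10 lower in TB13 as deposited, against 0.773% and 15.3% of all. After quantile scaling these counts were 4 and 2, against 4.06% and 4.72% of all.

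Pla2g4a, the cytosolic phospholipase A2 that releases arachidonic acid for this pathway, had a Trib1 mean of 593 ± 8.89, against 388 ± 27.3 for TB13 and 531 ± 1.55 for TB14 (SD, n = 4). It fell slightly in TB14, with a log2 difference of -0.15 ± 0.040 (SE; limma adjusted p = 0.00287). In TB13 the difference was -0.60 as deposited but 0.055 after quantile scaling, where it did not pass (limma adjusted p = 0.114), and 0.19 under calibration. Abcc1, an exporter of leukotriene C4, changed in TB14 by -0.15 with its brighter probe set and by 0.34 with the other (limma adjusted p = 0.00692 and 3.39e-05), so the probe sets disagreed. Ptgs2, the inducible cyclooxygenase, was dim, at 27.8 ± 1.17, 13.4 ± 1.35 and 17.5 ± 1.25 in the order Trib1, TB13, TB14 for the brighter of its probe sets. Its log2 differences were -0.63 and -0.42 as deposited and -0.75 and -0.40 after quantile scaling, but 0.57 in TB13 under calibration. Ptgs1 had no probe set annotated to it alone.

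Genes of this wider list named by the size of their difference included prostaglandin receptors and enzymes. They were picked from these same values, so no p-value is given for them. Ptger3, a prostaglandin E2 receptor, fell in both lines, where its means were 235 ± 20.4 (TB13) and 402 ± 3.88 (TB14) against 682 ± 12.8 (Trib1; SD, n = 4). Its log2 differences were -1.49 and -0.75 as deposited, with -0.77 and -0.81 after quantile scaling and -0.63 and -0.78 under calibration. Akr1c18, a hydroxysteroid dehydrogenase of the aldo-keto reductase family, changed by -1.36 and -0.57 as deposited, by -0.66 and -0.57 after quantile scaling, and by -0.30 and -0.60 under calibration. Cyp4f16, a relative of Cyp4f18, changed by -0.58 in TB14 as deposited. Ptger2, another prostaglandin E2 receptor, rose from a dim 16.2 ± 0.639 to 44.6 ± 2.602 (TB13) and 35.5 ± 3.93 (TB14), log2 differences of 0.99 and 0.73 that kept their direction under quantile scaling and calibration. Pla2g12a, a secreted phospholipase A2, and Abcc4, an exporter of prostaglandins, fell in TB13, with differences of -1.22 and -1.31 as deposited, -0.59 and -0.85 after quantile scaling, and -0.13 (not called) and -0.18 under calibration. In TB14 neither was called, at -0.0029 and -0.10. TB14 against TB13, their differences were 1.22 and 1.21 as deposited, 0.57 and 0.74 after quantile scaling, and 0.13 and 0.062 under calibration, where neither was called. Ptger4 differed by 1.11, 0.32 and 0.13 between these lines in the same order of scalings. Pla2g6 differed by -1.20, -1.80 and -2.28 with its brightest probe set, while another of its 3 probe sets read 0.46, 0.37 and -0.76.

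**Figure D4:**
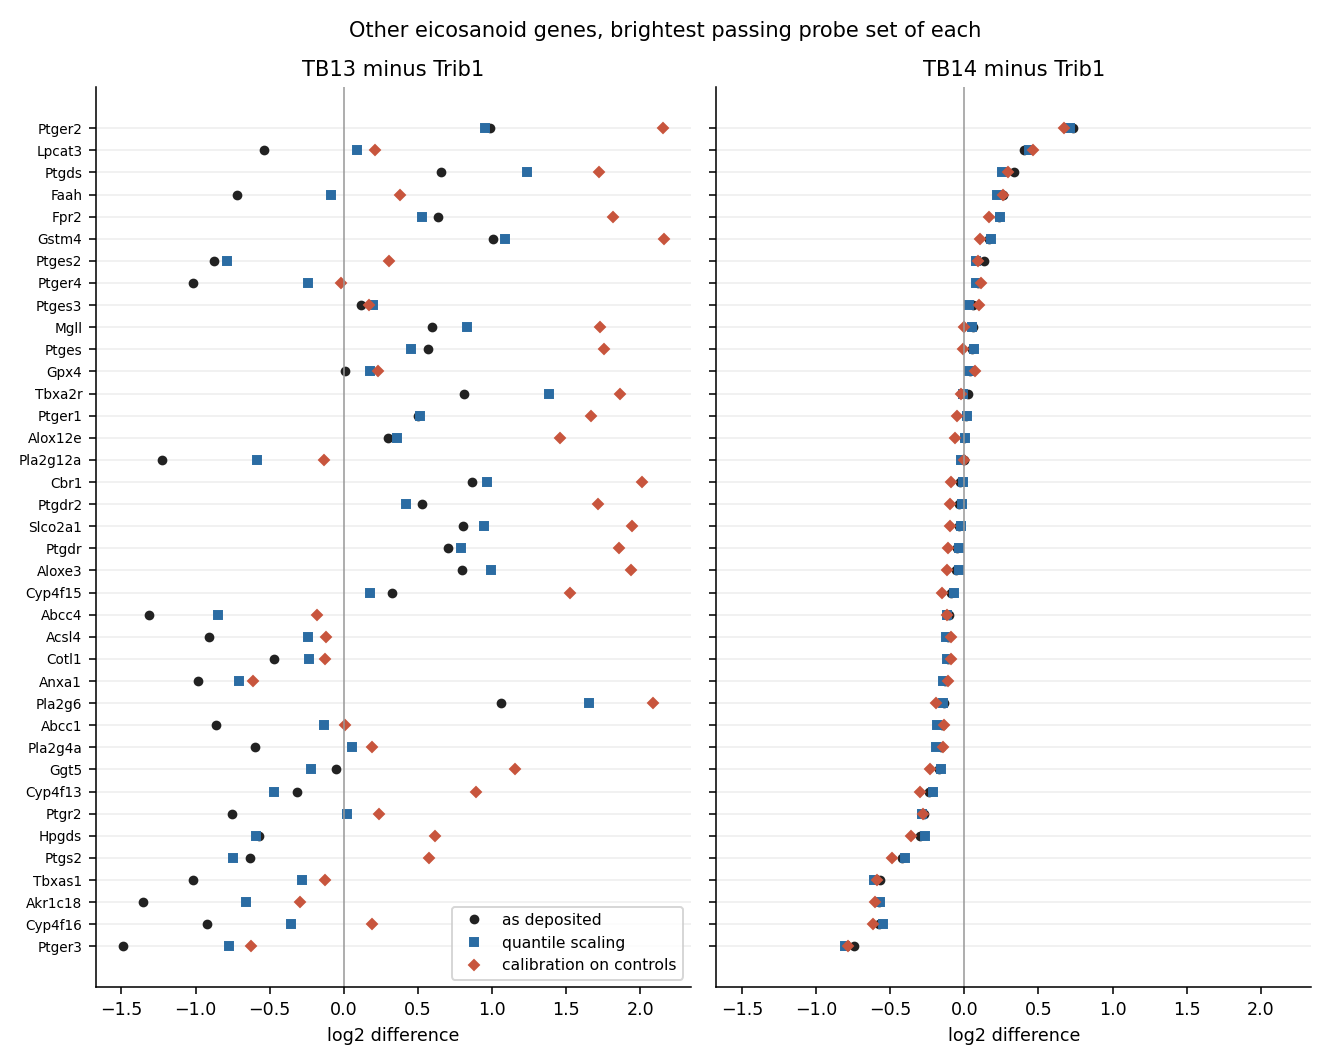
Log2 difference from Trib1 in TB13 and TB14 (horizontal axes) for the 38 further eicosanoid genes with a tested probe set, by the brightest such probe set, ordered by TB14. All TB14 values lie between -1 and 1, and those of TB13 shift with the scaling, mostly upward under calibration on the controls.

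Genes whose pattern over the 12 arrays was most like that of a member were found by the Euclidean distance of log2 values centred on each gene's mean, among 11213 other genes. For Cyp4f18 these were Il1r2, the interleukin-1 decoy receptor, at a distance of 0.42, the inhibitor of DNA binding Id2 at 0.65, and the lectin receptor Clec5a at 0.78. Il1r2 read 964 ± 12.2, 99.5 ± 4.46 and 235 ± 5.23 in Trib1, TB13 and TB14 (SD, n = 4). For Mgst1 they were Stfa2l1 at 1.501, Cnn3 at 2.02 and Elane at 2.33, none as close. Stfa2l1, a stefin whose family has near-identical copies and whose identity is thus uncertain, read 31.1 ± 2.54, 22.5 ± 3.23 and 320.1 ± 5.92. Alox5ap lay close to Rnaset2b, which also has a near-identical copy, at 0.095, to Kxd1 at 0.10 and to Ctsc at 0.13. For Alox5, searched after its values were seen, they were Cdkn2a at 1.04, Tgfbi at 1.16 and Itgam at 1.67.

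Because Alox5, Cyp4f18 and Ltc4s were the members at least 2-fold lower in both Bcl11a lines as deposited and after quantile scaling (Ltc4s in TB13 not under calibration, at -0.66), and Mgst1 the member with the largest rise, the 250 bases before their starts are shown, from RefSeq on GRCm38.p6. These windows were chr6:116461179-116461428 on the minus strand, chr8:72009627-72009876 on the minus strand and chr11:50238533-50238782 on the minus strand, and for the first of the Mgst1 starts chr6:138140277-138140526 on the plus strand. Each runs 5′ to 3′ in the direction of the gene, and capitals mark matches to GAGGAA, the core of a PU.1 motif, or to TTNNGNAA, a relaxed C/EBP motif, on either strand.
Alox5: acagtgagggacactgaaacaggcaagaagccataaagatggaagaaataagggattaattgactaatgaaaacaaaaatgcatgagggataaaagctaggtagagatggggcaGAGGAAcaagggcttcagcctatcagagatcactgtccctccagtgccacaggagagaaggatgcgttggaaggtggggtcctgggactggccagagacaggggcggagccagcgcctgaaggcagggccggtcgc
Cyp4f18: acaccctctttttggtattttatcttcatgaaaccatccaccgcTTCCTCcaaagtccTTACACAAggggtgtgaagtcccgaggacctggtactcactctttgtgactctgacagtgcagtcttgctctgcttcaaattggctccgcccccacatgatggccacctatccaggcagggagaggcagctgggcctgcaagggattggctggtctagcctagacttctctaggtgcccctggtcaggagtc
Ltc4s: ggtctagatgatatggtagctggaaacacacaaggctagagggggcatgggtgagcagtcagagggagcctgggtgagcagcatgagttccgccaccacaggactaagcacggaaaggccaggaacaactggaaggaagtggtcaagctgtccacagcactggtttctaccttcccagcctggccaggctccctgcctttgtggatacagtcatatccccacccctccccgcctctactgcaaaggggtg
Mgst1: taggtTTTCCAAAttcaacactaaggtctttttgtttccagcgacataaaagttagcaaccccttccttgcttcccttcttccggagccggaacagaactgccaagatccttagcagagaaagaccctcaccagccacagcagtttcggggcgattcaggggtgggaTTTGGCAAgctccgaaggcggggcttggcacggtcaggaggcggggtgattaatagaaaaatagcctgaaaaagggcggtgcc

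Counted back from the start, the GAGGAA match of Alox5 begins at -136 and that of Cyp4f18 at -206, on the reverse strand. Cyp4f18 also has a C/EBP match at -192 on the reverse strand. Mgst1 has C/EBP matches at -83 on the gene's strand and -245 on the reverse strand, and the Ltc4s window holds neither motif. The window of another Mgst1 start, chr6:138141337-138141586 on the plus strand and not printed, has a GAGGAA match at -234 and C/EBP matches at -122 and -28, all on the reverse strand. RefSeq windows were matched for 9 members, with 10 starts, and Alox5ap was not among them. GAGGAA was found in 5 of the 10 windows and in 23.3% of all 32851 windows of this length, and TTNNGNAA in 6 of the 10 and in 36.8% of all. The longer PU.1 motif GAGGAAGT, which contains the shorter one, was in none of the 10 and in 2.44% of all. These matches describe letters in a window and do not show binding.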

How the data were processed

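Intensities of 45141 probe sets on 12 single-colour arrays were deposited by the authors as linear values. The submitters' processing notes name MAS5, and the sources used here name no scaling target, filter or genome build. Gene names came from the platform annotation. The 104 control probe sets, and probe sets with several genes (551) or none (15588), were not tested.

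Differences were fitted with limma 3.58.1 in R 4.3.3 on log2(intensity + 12.7), 12.7 being the 25th percentile of all values, in 1 model of the 3 lines with a variance trend and Benjamini-Hochberg adjustment over 17475 probe sets. The code was tested on simulated data. Alternatives were other scalings, pseudocounts, filters and variance models, a replicate block, 1 probe set for a gene, 2 lines only, a 2-fold threshold and leaving out each array. Quantile scaling with a 2-fold threshold was added later. Calibration fitted the mean of the 18 hybridization controls as a quadratic of each array's values, its correction held constant outside their range.

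The members and lists were chosen with earlier results of these data known. All members are named. Wider-list genes named are the 4 largest called changes of each comparison without overlap, plus Pla2g4a, Ptgs1, Ptgs2 and Abcc1, with the brightest probe set of a gene. Figures used matplotlib 3.10.9.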

Additional observations from a re-analysis of the deposited data

Results flagged for a closer look

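Among 36 sets of 4 arrays, 1 for each member probe set and line, 2 had an array far from the rest, and chance alone marks about 1 in 20 such sets. Cyp4f18 read 94.3 on TB13 replicate 1 against 74.0 to 77.4 on the other 3, a gap of 0.831 of the range. The dimmer Lta4h probe set read 70.6 on Trib1 replicate 4 against 66.5 to 67.0, a gap of 0.866.

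TB14 minus TB13, which is also the difference between their effects against the shared Trib1 arrays, was called by limma as deposited for 9 of the 11 tested member probe sets. Over all tested probe sets 65.2% were called higher and 26.0% lower in this comparison, so nothing is read from that count, and the members were chosen on these arrays. On the log2 scale TB14 minus TB13 was 3.44 for Mgst1, 2.41 for Alox5, 2.29 for Ptgr1, 1.27 for Cyp4f18, 0.77 and -0.98 for the brighter and dimmer probe sets of Lta4h, 0.73 for Ltb4r1, 0.21 for Ltc4s and 0.20 for Alox5ap. The values for Ltb4r1 and Ltc4s lost their call or turned with the scaling.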

How the results depend on the processing

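Of 756 log2 differences of member probe sets under the alternatives, 742 kept their call and, where called, their direction. A turn of sign between values that were both not called was counted as kept. Most of the 756 came from settings that barely alter the values: leaving out any 1 array or changing the pseudocount kept all 33 each time. The other scalings kept fewer, 28 under calibration, 29 under median scaling and 29 after quantile scaling. TB14 minus TB13 turned to -0.051 for Ltb4r1 and -0.50 for Mgst3 after quantile scaling, and to -0.26 for Ltb4r1, -1.06 for Mgst3 and -1.01 for Ltc4s under calibration on the hybridization controls. Median scaling turned Mgst2 to -0.10 in TB13 minus Trib1 and to 0.27 in TB14 minus TB13. Leaving out any 1 array changed no count of called member probe sets. The replicate numbers did not pair the arrays, since 1 of 12 same-numbered pairs had a correlation of deviations over 0.1 and 8 of 24 best matches shared a number. With the replicate number as a block the counts of called members stayed at 4 higher and 7 lower in TB13, 5 and 5 in TB14, and 8 and 1 for TB14 minus TB13.

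Member probe sets called higher in TB13 minus Trib1 went from 4 to 2 under median scaling, 0 at 2-fold and 1 at 2-fold after quantile scaling, and those called lower from 7 to 4 under the last. Over all 17475 tested probe sets, those higher went from 4542 to 3070, 135 and 710 in the same order, and those lower from 11262 to 825. In TB14 minus Trib1, 2-fold left 1 higher and 3 lower, with or without quantile scaling. Of all tested probe sets it left 174 higher and 263 lower as deposited, and 138 and 234 after quantile scaling. In TB14 minus TB13 the 8 higher became 4 at 2-fold and 3 at 2-fold after quantile scaling, and the 1 lower became 3 after quantile scaling, 5 under calibration, 2 without a filter, and 0 with 1 probe set for a gene or at 2-fold. Over all probe sets the 11385 higher became 3005 and 824. The 4550 lower became 6274 after quantile scaling, 12493 under calibration and 159 at 2-fold. They became 12326 of 28898 without a filter and 3297 of 11223 with 1 probe set for a gene.

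For the wider eicosanoid list in TB13 minus Trib1, the 20 higher became 42 under calibration, 43 without a filter, 9 with the stricter filter, 2 at 2-fold and 4 at 2-fold after quantile scaling, and the 32 lower became 10 under calibration, 19 with 1 probe set for a gene, 10 at 2-fold and 2 at 2-fold after quantile scaling. Over all probe sets the 4542 higher became, in the same order, 13088, 12230 of 28898, 1708 of 13027, 135 and 710. The 11262 lower became 1900, 7131 of 11223, 2669 and 825. In TB14 minus Trib1 the 15 higher became 7 with 1 probe set for a gene, and 2-fold left 0 higher and 0 lower, with or without quantile scaling. Over all probe sets the 5169 higher became 3034 of 11223 with 1 probe set for a gene. In TB14 minus TB13 the 32 higher became 4 under calibration, 18 with 1 probe set for a gene, 10 at 2-fold and 3 at 2-fold after quantile scaling. Over all probe sets the 11385 higher became, in the same order, 2371, 7108 of 11223, 3005 and 824. The 20 lower of the list became 13 under median scaling, 42 under calibration, 46 without a filter, 9 with the stricter filter, 1 at 2-fold and 3 at 2-fold after quantile scaling. Over all probe sets the 4550 lower became, in the same order, 3002, 12493, 12326 of 28898, 1719 of 13027, 159 and 741. With the stricter filter and 1 probe set for a gene, fewer probe sets were tested, and without a filter more. The cause was not tested for the other changes. Signal near the array median limits Mgst1 outside TB14, Ptgs2 and Ptger2.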

Other observations

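Genes beside the members on the chromosome, by gene order in RefSeq, are given as values. Beside Mgst1, Dera and Lmo3 had log2 differences of 0.26 and -0.012 in TB14 against Trib1, where Mgst1 had 3.92. Lmo3 was dim, with means of 19.0 in Trib1 and 18.7 in TB14, below the medians of those arrays. Beside Alox5, Marchf8 had -0.40 in TB13 as deposited, which turned to 0.34 after quantile scaling, and 0.33 in TB14, against -3.75 and -1.34 for Alox5. Around Cyp4f18, at -3.26 in TB13 and -1.99 in TB14, Zfp961 had -1.66 and -0.21, and Tpm4, 4 genes away, had 0.18 and 0.60. After quantile scaling the TB13 values of Zfp961 and Tpm4 were -1.34 and 0.072. These are the nearest protein-coding genes with a tested probe set within 6 genes.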
